A study of Mus musculus with 8 samples.

Results

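Regions of open chromatin that were called in every condition but one, cells with E47-ER after 16 h of 4-hydroxytamoxifen, numbered 4060 of 60835 regions in the union of 4 peak lists, and 12.0% of the 33727 regions that the other 3 lists shared. They were chosen by a call rule: present in the lists of E47 at 4 h, GFP at 4 h and GFP at 16 h, and with no overlapping region in the list of E47 at 16 h. The calls in all 4 lists made the choice, so the number of these regions and their weakness in the other lists are descriptions and carry no test. The cells were group 2 innate lymphoid cells (ILC2s), isolated from the thymus of plck-Id1 mice on the C57BL/6 strain and assayed by ATAC-seq, in which the transposase Tn5 cuts and tags accessible DNA. All cells thus came from Id1 transgenic animals, were expanded in a mix that included IL-7, IL-25 and IL-33, were sorted for GFP and received 4-hydroxytamoxifen. The E47 cells carried a retrovirus for GFP and an E47-ER fusion and were harvested after 4 h or 16 h, and the GFP cells carried a retrovirus for GFP alone and were harvested at the same times. Each of the 4 groups had 2 samples, from which the authors made 1 peak list, so no spread between replicates can be given and no comparison below has a test. The free-text sample descriptions assign the vectors by replicate number and not by group, against the titles and transduction labels followed here; if they were right, each list would pool both vectors. Positions are given in mm10. These are bulk samples, so fewer cells with an open region and weaker opening per cell cannot be told apart.

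E47 is a splice product of Tcf3 and belongs to the E proteins, helix-loop-helix factors that bind the E-box motif and drive T and B lymphocyte development. Id1 pairs with E proteins and keeps them off DNA, and thymic ILC2s expand when E proteins are held down in this way. The name plck stands for the proximal Lck promoter, which is active in the T cell lineage of the thymus. The ER part of the fusion keeps E47 inactive until tamoxifen is added, so 4 h and 16 h are an early and a late time after E47 is switched on. Open regions at gene starts are promoters, which tend to be shared between conditions, whereas open regions inside or between genes are often enhancers, which tend to be specific to a cell state.

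Of the 4060 regions, 143 overlapped a promoter window, defined as 250 bases before to 50 bases after an annotated start of a protein-coding gene. The sequences below are the 250 bases upstream of the start in the 6 highest-ranked of these, from RefSeq on GRCm38.p6, the assembly also named mm10. They are shown because they are the strongest promoters that were called in the other 3 lists and not in E47 at 16 h, and capitals mark each E-box (CANNTG, which reads as CANNTG on either strand).
Wdr17, chr8:54724369-54724618, minus strand: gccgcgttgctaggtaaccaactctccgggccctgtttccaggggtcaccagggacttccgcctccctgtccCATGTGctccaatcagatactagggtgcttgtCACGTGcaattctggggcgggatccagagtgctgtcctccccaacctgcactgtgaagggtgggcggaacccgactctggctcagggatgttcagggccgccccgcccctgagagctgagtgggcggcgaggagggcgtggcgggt
Gm46390, chr13:119790021-119790270, plus strand: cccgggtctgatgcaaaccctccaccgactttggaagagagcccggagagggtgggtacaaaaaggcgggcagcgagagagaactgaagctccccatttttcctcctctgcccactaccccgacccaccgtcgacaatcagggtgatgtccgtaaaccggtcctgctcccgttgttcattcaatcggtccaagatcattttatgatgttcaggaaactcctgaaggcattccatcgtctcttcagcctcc
Srms, chr2:181213172-181213421, minus strand: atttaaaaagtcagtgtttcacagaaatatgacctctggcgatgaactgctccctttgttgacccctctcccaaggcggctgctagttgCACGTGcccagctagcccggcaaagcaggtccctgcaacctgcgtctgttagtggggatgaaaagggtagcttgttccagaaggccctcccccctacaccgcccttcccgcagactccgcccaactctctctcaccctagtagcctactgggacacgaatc
Pgf, chr12:85177314-85177563, minus strand: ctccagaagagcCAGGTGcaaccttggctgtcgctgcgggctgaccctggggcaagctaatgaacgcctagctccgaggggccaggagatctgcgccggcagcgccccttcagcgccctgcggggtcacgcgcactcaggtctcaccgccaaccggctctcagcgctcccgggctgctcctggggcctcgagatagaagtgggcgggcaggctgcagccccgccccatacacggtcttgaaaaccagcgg
Mef2b, chr8:70152511-70152760, plus strand: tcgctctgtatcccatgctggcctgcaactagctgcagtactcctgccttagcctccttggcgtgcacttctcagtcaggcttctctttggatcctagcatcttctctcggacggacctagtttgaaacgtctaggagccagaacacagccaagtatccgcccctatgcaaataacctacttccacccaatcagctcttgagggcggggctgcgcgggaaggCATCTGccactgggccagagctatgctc
Ptprn2, chr12:116485470-116485719, plus strand: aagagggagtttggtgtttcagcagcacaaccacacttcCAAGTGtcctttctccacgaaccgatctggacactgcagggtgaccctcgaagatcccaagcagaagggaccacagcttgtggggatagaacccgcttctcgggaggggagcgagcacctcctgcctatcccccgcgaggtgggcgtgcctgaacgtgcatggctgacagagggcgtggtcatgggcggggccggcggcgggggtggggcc
Wdr17 (a WD-repeat protein gene) had 2 E-boxes in its upstream 250 bases. Srms (a non-receptor tyrosine kinase), Pgf (placental growth factor, of the VEGF family), Mef2b (a MADS-box transcription factor) and Ptprn2 (a receptor-type phosphatase of secretory granules) had 1 each, and Gm46390 had 0. Printed bases can lie outside the called region. The Pgf region (chr12:85176888-85177487) does not reach the E-box marked near the start of its sequence. The Gm46390 region (chr13:119789872-119790101) covers only the first part of its sequence. Fold enrichment, the authors' ratio of signal to local background, was 16.8 for the Wdr17 region in E47 at 4 h, 14.4 in GFP at 4 h and 16.5 in GFP at 16 h. For the Srms region it was 12.5, 10.9 and 13.6 in the same order, and for the Pgf region 12.7, 8.38 and 13.8. The values belong to each list alone, and these 3 promoters were lowest in GFP at 4 h. The Mef2b region had 12.5, 13.7 and 12.2, and the Ptprn2 region 10.1, 11.8 and 13.1. The Gm46390 region, which lies inside Zfp131, a zinc finger gene, had the lowest folds of the 6, at 4.55, 5.07 and 5.55.

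The E47 16 h list lacked more regions that all other lists held than any other list did, and it was also the shortest. Of 33727 regions called in the other 3 lists, 12.0% were missing from E47 at 16 h (95% exact binomial interval 11.7 to 12.4, counting error only). The same count was 2607 of 32274 (8.08%) for regions missing only from GFP at 4 h. GFP at 16 h alone lacked 874 of 30541 (2.86%), and E47 at 4 h alone 752 of 30419 (2.47%). The order of these counts is the reverse of the order of the list lengths, except between the longest pair. The list of E47 at 16 h had 40649 regions, that of GFP at 4 h 42665, that of E47 at 4 h 49811 and that of GFP at 16 h 52846. When every list was shortened to its 40649 regions with the highest −log10 p, 2354 regions were missing only from E47 at 16 h (7.69%), against 1387 (4.68%) that only GFP at 4 h lacked. The counts were 1358 (4.59%) where GFP at 16 h was the list without them and 869 (2.98%) where it was E47 at 4 h. All 2354 were among the 4060, as follows from shortening only the other lists, and they made up 58.0% of them. The number of regions therefore moved by over 1.5 times with list length while E47 at 16 h still lacked the most. The part of sequencing depth in this was not tested, since the lists give no depth.

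**Figure D1:**
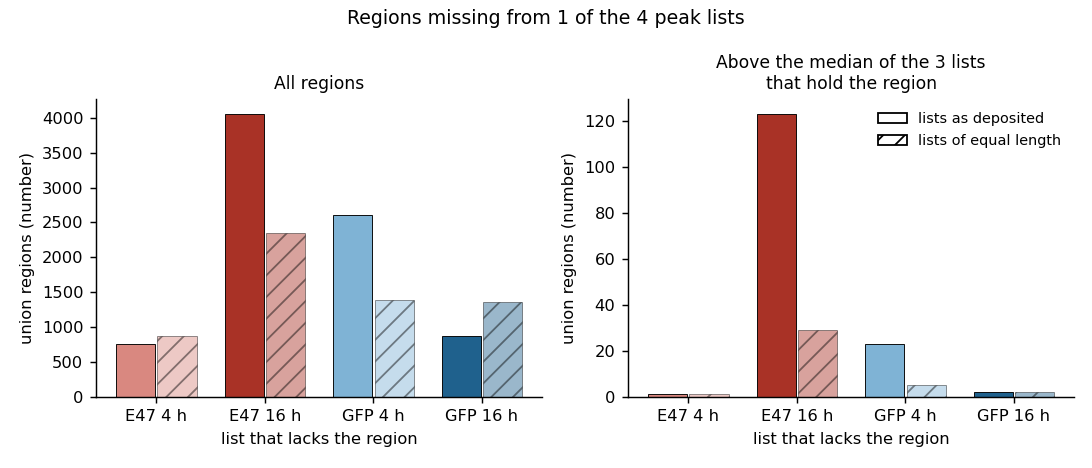
Number of union regions missing from 1 list and present in the other 3, by the list that lacks them (E47 at 4 h and 16 h, then GFP at 4 h and 16 h), for lists as deposited (plain bars) and shortened to equal length (hatched bars). The left panel shows all regions, with 4060 and 2354 for E47 at 16 h, and the right panel those above the median −log10 p of the 3 lists that hold them, with 123 and 29 for E47 at 16 h.

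The missing regions were weak where they were called. Rank is given as a percentile by −log10 p among the 33727 regions common to E47 at 4 h, GFP at 4 h and GFP at 16 h, so that each list ranks the same number of regions. The mean rank over the 3 lists had a median of 14.7 for regions missing from E47 at 16 h and of 54.8 for regions in all 4 lists. Fold enrichment in E47 at 4 h had a median of 6.96 for the missing regions, against 12.0 for regions in all lists. In GFP it was 7.07 against 10.99 at 4 h and 8.35 against 12.3 at 16 h. The missing regions were also narrower, with a median width of 376 bp against 678 bp. Of the 4060, 3461 (85.2%) had a mean rank of 30 or less and 38 had one above 50.

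A small set lay in the upper part of each of the other 3 lists, counted over all regions of that list. Above the median −log10 p of each of those lists lay 123 regions (3.03%; 2.52 to 3.604), against 23 of the regions that only GFP at 4 h lacked. Only 2 such regions were missing from GFP at 16 h and 1 from E47 at 4 h. With equal list lengths 29 were missing from E47 at 16 h and 5 from GFP at 4 h, with 2 and 1 in the remaining lists. The 123 had median folds of 11.7 in E47 at 4 h, 11.9 in GFP at 4 h and 12.6 in GFP at 16 h. Regions in all 4 lists had 12.0, 10.99 and 12.3 in the same order. Among the 33727 regions common to the 3 lists, the median ranks of the 123 were 38.6, 48.3 and 49.3, so they were of middling strength. Of the 123, 74 lay inside a gene and over 1 kb from its ends, 5 overlapped a promoter window, and the median gap to the nearest E47 16 h region was 7913 bp.

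The highest-ranked region of all lay 2593 bp from Edaradd, which encodes the adaptor of the ectodysplasin receptor (chr13:12468506-12469035). It had fold enrichments of 15.9 in E47 at 4 h, 17.4 in GFP at 4 h and 17.6 in GFP at 16 h, with ranks of 54.9, 71.1 and 68.9. The next lay 17341 bp from Rgs21, a regulator of G protein signalling (chr1:144501903-144502565), with folds of 14.4, 15.8 and 19.5. In both, the rank was lowest in E47 at 4 h. A region 22416 bp from Mysm1, a histone H2A deubiquitinase gene needed for blood cell development (chr4:95001394-95001878), had folds of 15.8, 17.1 and 19.1. Inside Adam10, which encodes a protease that cleaves Notch (chr9:70688172-70688750), the folds were 16.0, 19.4 and 21.0. Other regions among the first 10 lay inside Frmd4a (a polarity scaffold), Plcb1 (a phospholipase C), Cdk17 (a cyclin-dependent kinase) and Aggf1 (an angiogenic factor), and 1 (chr5:39051556-39052054) lay 174858 bp from the nearest end of a protein-coding gene. Their folds ranged from 11.8 (Frmd4a) to 17.6 (Cdk17) in E47 at 4 h, from 13.5 (Frmd4a) to 18.2 (Cdk17) in GFP at 4 h and, in GFP at 16 h, from 15.6 at the region with no gene to 19.4 at Cdk17. None had an E47 16 h region within 5 kb, the nearest being 5727 bp away at Cdk17.

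Most regions missing from E47 at 16 h also ranked lower in E47 at 4 h than in GFP at 4 h. The median rank of the 4060 was 9.67 in E47 at 4 h, 15.5 in GFP at 4 h and 16.8 in GFP at 16 h. Of the 4060, 2666 (65.7%; 64.2 to 67.1) ranked lower in E47 than in GFP at 4 h, and of the 29667 regions in all lists 47.1% (46.5 to 47.7) did. Among regions with a mean rank of 30 to 40, the shares were 82.6% (78.5 to 86.2) and 45.7% (44.0 to 47.4). The rank in E47 at 4 h was not itself part of the rule, but a call in that list was. The same asymmetry was found whichever list was left out: of regions missing only from GFP at 4 h, 62.5% ranked lower in GFP than in E47 at 16 h, and the shares were 60.6% for regions missing only from GFP at 16 h and 59.0% for those missing only from E47 at 4 h. The list that shares the vector thus ranked most of the missing regions lower in each of the 4 cases, and this was not particular to E47 at 16 h.

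**Figure D2:**
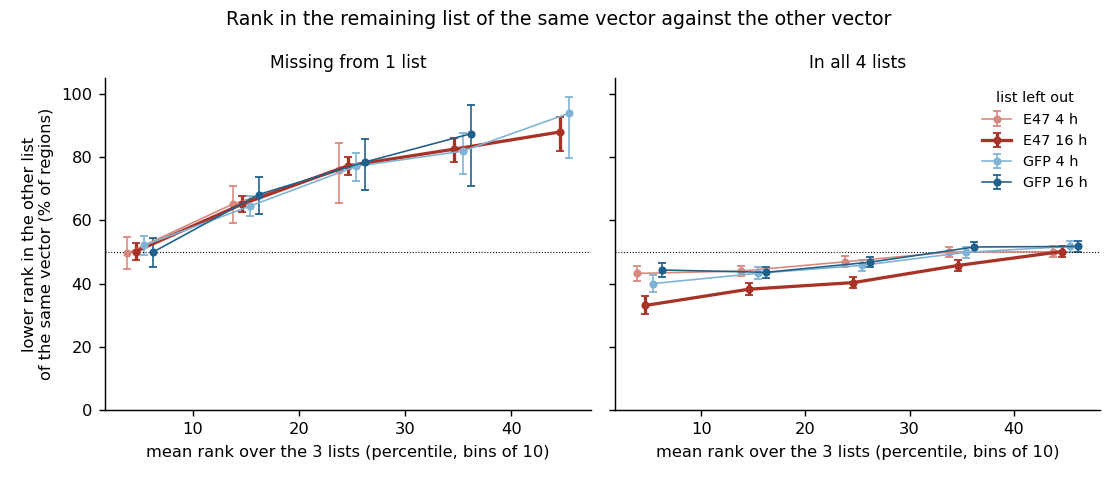
Share of regions that rank lower in the remaining list of the same vector than in the list of the other vector at that time, by mean rank over the 3 lists used (bins of 10 percentiles, exact 95% intervals; bins up to a mean rank of 50, without those under 20 regions). Regions missing from 1 list (left) reach shares above 75% from a mean rank of 20 on, for every list left out, while regions in all 4 lists (right) stay between 33.1% and 51.8%.

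Position was not used by the rule, and the missing regions tended to lie far from the ends of genes. The sets compared here differ in rank, however, and regions near gene ends were more frequent at high rank. Of regions common to the other 3 lists, 583 of 3907 with a mean rank of 20 to 30 lay within 1 kb of an end. At a mean rank of 90 to 100, 2765 of 3289 did. With a mean rank of 20 to 30, 9.43% of regions within 1 kb of an end were missing, against 22.5% of those beyond. Of the 4060, 436 had their summit 1 kb or less from where a protein-coding gene begins or ends (10.7%; 9.80 to 11.7), against 36.8% (36.2 to 37.3) of regions in all 4 lists. Their median distance to a gene end was 14929.5 bp against 4928 bp. Inside a gene and over 1 kb from its ends lay 53.5% against 37.6%, and outside genes 35.7% against 25.6%. A promoter window was overlapped by 3.52% (2.98 to 4.14) of the missing regions and by 29.2% (28.7 to 29.7) of regions in all lists. For regions missing only from GFP at 4 h the shares were 14.7% (13.4 to 16.1) within 1 kb of an end and 4.18% (3.45 to 5.02) over a promoter, so this position was not particular to E47 at 16 h.

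Promoters were retained more often than other regions of like rank. Among regions with a mean rank of 30 to 40, 6 of 284 that overlapped a promoter window were missing from E47 at 16 h (2.11%; 0.779 to 4.54), against 396 of 3386 others (11.7%; 10.6 to 12.8). At a mean rank of 20 to 30 the shares were 8.82% (5.74 to 12.8) and 21.4% (20.1 to 22.8). The lists without GFP at 4 h gave 5.28% and 10.3% in the same bin, those without E47 at 4 h gave 1.44% and 2.58%, and those without GFP at 16 h gave 3.27% and 2.98%. In that bin the promoter share was thus the lower for every list but GFP at 16 h, and the intervals did not overlap for the shorter pair.

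**Figure D3:**
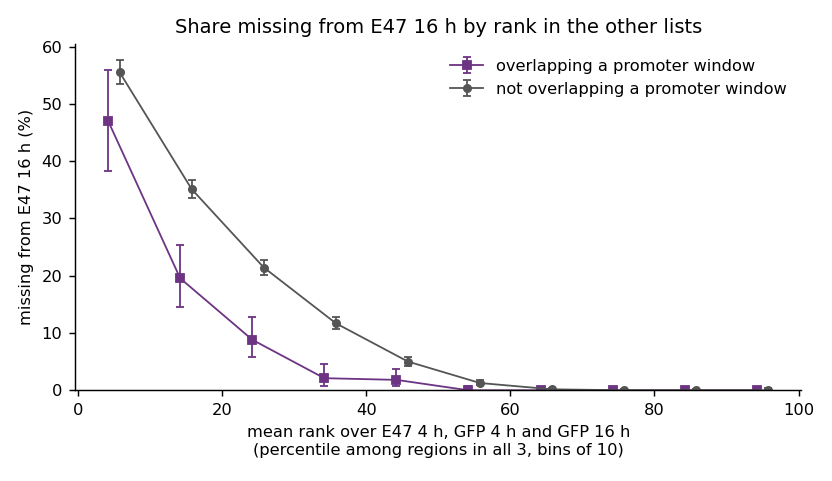
Share of regions missing from E47 at 16 h (vertical axis, percent) among regions in the other 3 lists, by their mean rank there (bins of 10 percentiles), for regions that overlap a promoter window (squares) and all others (circles), with exact 95% intervals. Both shares fall with rank, reaching 1.82% and 5.01% at a mean rank of 40 to 50.

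The 143 regions overlapped 166 promoter windows. CANNTG was found in 59.6% of these (51.8 to 67.2), in 54.8% of promoters of regions in all 4 lists and in 62.8% of all 21262 promoter windows. The E-box variant CAGGTG or its complement CACCTG was in 21.1% (15.1 to 28.1), against 14.7% in promoters of regions in all lists and 16.9% in all windows, and CAGCTG in 14.5% against 10.6% and 12.1%. CCGGAA, the core of ETS sites in promoters, was in 9.04% (5.15 to 14.5) against 25.4% and 14.99%. Promoters of regions in all 4 lists with a mean rank up to 50 held CAGGTG or CACCTG in 19.2%, CAGCTG in 12.2% and CCGGAA in 12.5%, each inside the interval of the missing set. The AP-1 motif TGANTCA (7.83%), the GATA motif AGATAA (7.83%), AGGAAG (27.7%) and the RUNX motif TGTGGT (9.04%) also had intervals that held the value of those weaker promoters, as did the STAT motif TTCNNNGAA at 3.01% (0.985 to 6.89) against 5.76%. The median GC content of the upstream 250 bases was 58.8% in the missing set, 58.8% in those weaker promoters and 61.6% in promoters of all regions in all 4 lists. Both strands were searched. Each of the E-box variants is a case of the general CANNTG, and the other ETS motif, AGGAAG, can overlap CCGGAA only at its ends. Sequences of regions outside promoters were not analysed here.

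The spacing of regions and the gaps to E47 16 h regions were measured in different ways and among different regions, so they do not compare directly. Measured between summits, the nearest region common to the other 3 lists was a median of 8511.5 bp from missing regions. For retained regions this distance was 7908 bp. From edge to edge, and to any region of the E47 16 h list, the median gap of the missing regions was 7457 bp. Of the missing regions, 812 (20%) had an E47 16 h region within 1 kb and 370 (9.11%) within 200 bp. The smallest gap was 11 bp, at a region named for Wars (a tryptophan tRNA ligase gene); next came 26 bp at Xdh (xanthine dehydrogenase) and at Ifitm3 (an interferon-induced membrane protein). Among genes named further on, Ankrd44, Arid1b, Atp9b, Atxn1, Cebpe, Nfatc1, Tnfrsf8 and Traf1 each had 1 missing region with an E47 16 h region 54 to 140 bp away. On the other side of the rule, no region in all 4 lists owed its E47 16 h call to an overlap under 50 bp, the smallest being 74 bp. The nearest region among those common to the other 3 lists was also missing from E47 at 16 h for 14.5% (13.5 to 15.7) of the missing regions and for 11.5% (11.1 to 11.9) of the retained ones. With neighbours over 1 kb away only, the shares were 14.2% (13.1 to 15.4) and 12.2% (11.8 to 12.7). For regions missing only from GFP at 4 h the shares were 8.44% and 8.31%. A region that the 2 GFP lists shared and no E47 list held lay within 25 kb of 15.3% (14.2 to 16.5) of the missing regions and of 14.0% (13.2 to 14.9) of the retained regions of mean rank up to 30. For regions shared by the E47 lists and held by no GFP list the shares were 11.1% (10.1 to 12.1) and 13.5% (12.7 to 14.4). The shares on chromosomes other than Y ran from 9.84% on chromosome 7 to 14.2% on chromosome 18.

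Missing regions were spread over many genes. The nearest protein-coding gene within 100 kb was taken as a name of position, not as a target, and 3835 regions had one. They fell to 2935 genes, 22.4% of the 13124 genes with a region in the other 3 lists, and 2277 of these genes had a single one. Slc24a3, a potassium-dependent sodium and calcium exchanger gene, and Fli1, an ETS transcription factor gene of blood cells, had the most, with 7 each. At Fli1, 7 of 16 regions common to the other lists were missing, 6 of them inside the gene, and 9 were in all lists. The strongest (chr9:32486702-32487286) had folds of 9.13 in E47 at 4 h, 8.54 in GFP at 4 h and 10.3 in GFP at 16 h, and the others had folds between 3.81 and 9.28. At Slc24a3, 7 of 22 were missing, 5 of them outside the gene body.

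**Figure D4:**
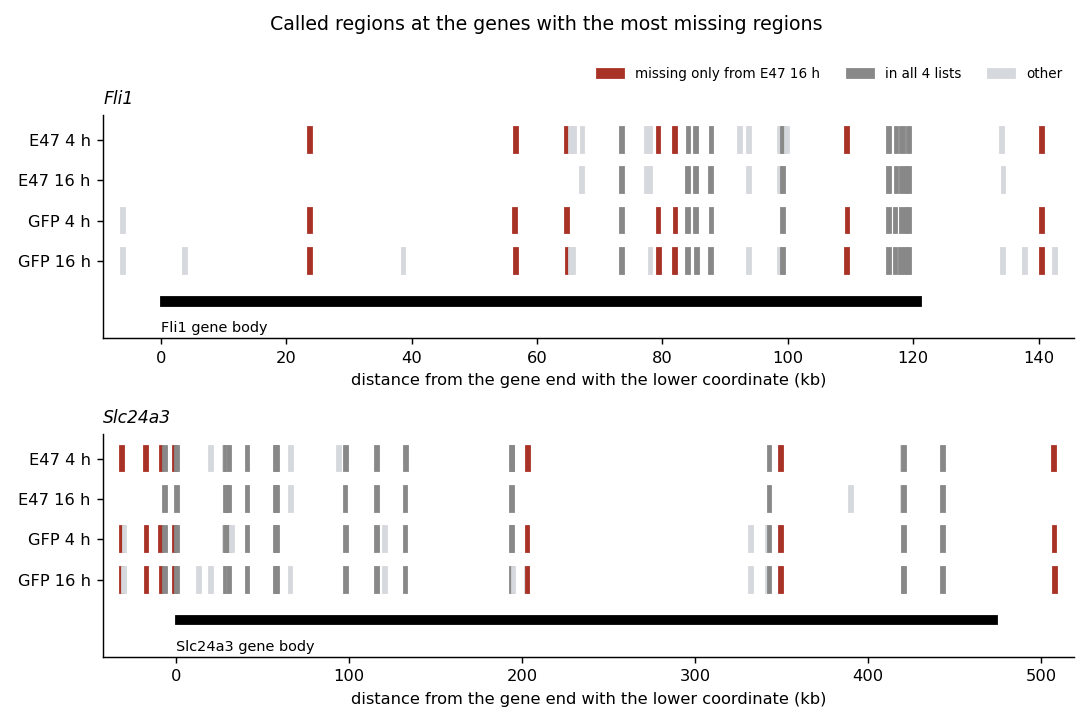
Called regions at Fli1 and Slc24a3 in E47 at 4 h and 16 h and GFP at 4 h and 16 h (rows), by distance in kb from the gene end with the lower coordinate; regions narrower than 1/250 of the width are widened to be seen. Red marks the 7 regions per gene missing only from E47 at 16 h, grey regions in all 4 lists, light grey all other regions, and the black bar the gene body.

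Atxn1, which encodes a partner of the repressor Capicua, had 6 of 20 regions missing. Chst11, a chondroitin sulfotransferase gene, and Asap1, an Arf GTPase-activating protein gene, had 5 of 12 each, and Atp9b, a putative phospholipid flippase gene, 5 of 8. Ankrd44, a subunit gene of protein phosphatase 6, had 5 of 16, and Etv6, an ETS repressor gene, 5 of 17. In Chst11 all 5 lay inside the gene, with folds of 4.34 to 7.71 in E47 at 4 h, 6.86 to 10.54 in GFP at 4 h and 6.76 to 13.5 in GFP at 16 h.

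Grouped by function, the lists had between 1 and 29 missing regions. Over 20 lists with 386 genes, 345 genes had a region in the other 3 lists and 112 of them a missing one, and 178 of 1605 regions (11.1%) were missing, against 12.0% over all regions. The share missing ran from 2.86% in myeloid and dendritic cell genes (1 of 35, Cebpe) to 37.5% in B cell genes (3 of 8, at Btk, Spib and Pax5), and the exact interval of each of the 20 lists held the 12.0% of all regions. Among regions of mean rank up to 50, of which 23.2% were missing in all, the chemokine receptor and homing list was the only one whose interval lay outside, with 6 of 62 (9.68%; 3.63 to 19.9). No test was made of any list. At equal list length the set held no region of the myeloid and dendritic cell list (0 of 31) or the mast cell and basophil list (0 of 11). The missing regions of both had dropped out of a shortened list and were still not called in E47 at 16 h.

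**Figure D5:**
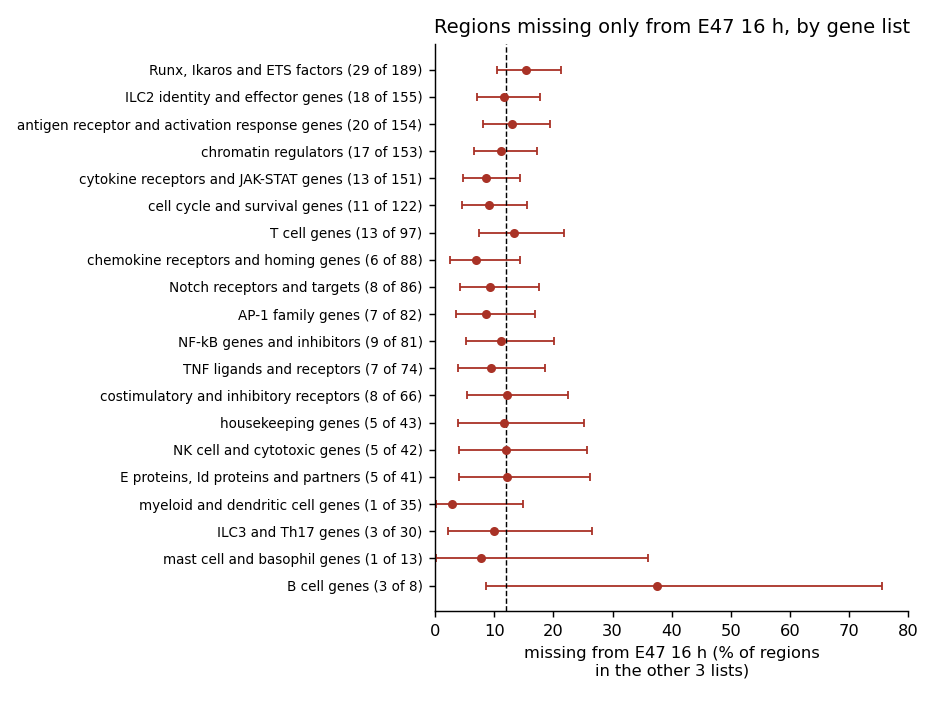
Share of each gene list's regions in the other 3 lists that were missing from E47 at 16 h (points, percent; bars are exact 95% intervals; counts in brackets), with lists in order of the number of regions. The dashed line is the 12.0% over all regions, and every interval crosses it.

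The label of the cells was checked against markers. All 10 ILC2 marker genes had a region in all 4 lists, 56 in sum, and 9 further regions were missing from E47 at 16 h alone. Over the whole union, 4060 regions were missing beside 29667 in all 4 lists, a share of 12.0%. T cell markers had such a region at Tcf7 alone of 4 genes, B cell markers at Pax5 and Ebf1 of 4, and myeloid markers at Itgam and Cd14 of 4. NK cell markers had one at Eomes and Klrb1c of 3, and mast cell markers at all 3 (Kit, Cpa3 and Mitf). Regions in all 4 lists numbered 4 at T cell, 3 at B cell and 3 at myeloid markers. NK cell markers had 11, of which Klrb1c had 8, and mast cell markers 9. Of these 18 genes for other cell types, Pax5 alone had a region missing only from E47 at 16 h. Each of these types had far fewer regions than the ILC2 markers, so the counts do not compare shares between cell types. Cd4, Cd8a, Ms4a1, Lyz2, Csf1r and Ncr1 had no region in any list. Of the wider list of ILC2 genes, 12 of 29 with a region had a missing one, 18 of 155 regions (11.6%; 7.03 to 17.7). Rora, the gene of a nuclear receptor that ILC2s require to develop, had 3 of 10 missing, all inside the gene, the strongest (chr9:68932467-68932788) with folds of 7.93 in E47 at 4 h, 10.9 in GFP at 4 h and 12.7 in GFP at 16 h. Klrg1, a lectin receptor gene of mature ILC2s, had 2 of 11 missing, 1 of them 75 bp from an E47 16 h region. Gata3, the main ILC2 transcription factor gene, had 2 of 7 missing, 1 inside the gene with folds of 4.65, 4.02 and 4.09 and 1 at 92510 bp with 7.12, 8.62 and 10.4. The region inside Gata3 had an E47 16 h region 259 bp away. At equal list length neither was in the set, as each had dropped out of a shortened list. Both were still not called in E47 at 16 h. Bcl11b, needed by ILC2s and T cells, had 2 of 11 missing.

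Among transcription factor genes of the Runx, Ikaros and ETS families, 29 of 189 regions were missing (15.3%; 10.52 to 21.3). Fli1 and Etv6 held 12 of the 29. At equal list length 19 of 166 regions of this list were missing (11.4%; 7.03 to 17.3), against 7.69% over all regions. Runx1, a core factor of blood and lymphoid development, had 4 of 19 missing, and its strongest (chr16:92793703-92794243) had folds of 8.14 in E47 at 4 h, 10.96 in GFP at 4 h and 12.1 in GFP at 16 h. Runx2 had 3 of 14 and Ets1 2 of 14. Of the E proteins, Id proteins and their partners, 5 of 41 regions were missing (12.2%; 4.08 to 26.2). Tcf4, an E protein gene, had 2 of 6 missing, 1 of them with a mean rank of 56.2 and folds of 13.6, 13.6 and 18.9. Id3 had 1 of 5 and Lmo2, a bridging partner in E protein complexes, 1 of 2. Of 3 Id4 regions in the union, 1 was common to the other lists and was missing, with an E47 16 h region 141 bp away. Jdp2, an AP-1 repressor gene, had 2 of 9 missing, with E47 16 h regions 41 bp and 74 bp away, and the AP-1 list as a whole 7 of 82 (8.54%; 3.501 to 16.8), with Atf3 and Fos at 1 each.

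T cell genes had 13 of 97 regions missing (13.4%; 7.33 to 21.8). Rag1, which encodes a subunit of the V(D)J recombinase and is an E protein target, had only 2 regions common to the other lists, and both were missing from E47 at 16 h. The region inside Rag1 (chr2:101648161-101648648) had folds of 6.47 in E47 at 4 h, 9.93 in GFP at 4 h and 10.4 in GFP at 16 h. The other, 3545 bp from the gene, had 8.32, 8.09 and 6.79. At equal list length neither Rag1 region was in this set. Cd247, the CD3 zeta chain gene, had 1 of 6 missing, a region of middling strength (mean rank 50.9) with an E47 16 h region 60 bp away. In the Notch list 8 of 86 were missing (9.30%), with Rbpj, the DNA-binding partner of Notch, at 2 of 11 and Maml2, Jag1 and Il2ra at 1 each.

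Genes that respond to antigen receptor and calcium signals had 20 of 154 missing (13.0%; 8.12 to 19.3). Nfatc2, a calcium-responsive transcription factor gene, had 4 of 20, the strongest (chr2:168524873-168525325) with folds of 8.61 in E47 at 4 h, 10.8 in GFP at 4 h and 11.7 in GFP at 16 h. Nfatc1 had 3 of 12, Ppp3ca, a catalytic subunit gene of calcineurin, 3 of 14, and Itpr1, a calcium release channel gene, 2 of 22, 1 of them 50 bp from an E47 16 h region. In cytokine receptor and JAK-STAT genes 13 of 151 were missing (8.61%; 4.66 to 14.3), with Tgfbr2 (the type II TGF-β receptor) at 3 of 13, Stat4 at 2 of 8, Il4ra at 2 of 12 and Socs2 (a feedback inhibitor) at 1 of 6. The NF-kB list had 9 of 81 (11.1%), among them Nfkb1 with 3 of 19 (E47 16 h regions lay 51 bp and 88 bp from 2 of them), Traf1 with 2 of 7, Ikbkb with 1 of 4 and Relb with 1 of 2. The TNF family list had 7 of 74 (9.46%), led by Cd40lg with 2 of 3 and Tnfrsf8 with 2 of 14, with Tnfsf10 and Fasl at 1 each. Costimulatory and inhibitory receptor genes had 8 of 66 (12.1%), with Btla at 2 of 3 and Havcr2, Cd160 and Cd48 at 1 each. In the homing list the 6 missing regions were at Cd69 (3 of 12), Itgb2, S1pr1 and Ccr2. ILC3 and Th17 genes had 3 of 30 (10%; 2.11 to 26.5), at Ahr, Lif and Nrp1. The missing regions of Nrp1 and Tnfrsf8 were not in the set at equal list length, having dropped out of a shortened list.

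Chromatin regulators had 17 of 153 missing (11.1%; 6.61 to 17.2), with Arid1b, a SWI/SNF subunit gene, at 4 of 23, Chd7 and Tet2 at 2 of 20 and 2 of 18, and Dnmt3a, a DNA methyltransferase gene, at 2 of 10. Cell cycle and survival genes had 11 of 122 (9.02%; 4.59 to 15.6), with Rb1, the retinoblastoma gene, at 3 of 6 and Bcl2, Bcl2l1 and Pmaip1 at 2 each. NK and cytotoxic genes had 5 of 42 (11.9%), at Zeb2, Itga2 and Gzmb, and mast cell and basophil genes 1 of 13, at Hdc. The missing regions at Gzmb, Hdc, Cebpe and Pax5 were not among those at equal list length. Housekeeping genes had 5 of 43 (11.6%; 3.89 to 25.1), of which 4 were named for Ywhaz. Tcf3 and Id1 had no missing region, with 2 regions each in all 4 lists, and Esr1, the estrogen receptor gene, had 1 of 5. These counts do not tell the vectors apart.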

How the data were processed

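ATAC-seq of 8 samples in 4 groups was deposited as 1 peak list per group, whose file name per the labels points to a conservative set by reproducibility between replicates (IDR); no values per sample were used. The submitters' processing notes name cutadapt, Bowtie2, MACS2, DiffBind and genome build mm10; no version is given in the sources used here. Track names in the labels record trimming, pooling, removal of duplicates and of mitochondrial reads, and an adjustment for Tn5. Each deposited line has a score (540 to 1000, not used), a fold enrichment (a ratio to local background) and a −log10 p by the authors' peak caller, which grows with depth. Depth is unknown.

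Overlapping lines were merged within a list, and regions of different lists that overlapped by 1 bp or more were linked into union regions. A region's fold and −log10 p are the highest among its lines. Genes (21896 protein-coding) and promoters (21262 windows of 17491 genes) came from RefSeq tables (assembly GRCm38.p6, also called mm10); all 386 listed genes matched. A planned motif search around summits was not run, as no genome was used. Intervals are exact (Clopper-Pearson) at 95% and treat regions as independent, which neighbours are not. Whether samples of a group were separate cultures or animals is not stated in the labels.

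The regions and the gene lists were chosen with earlier results of these data known. Named genes are those nearest the 10 highest-ranked regions, 8 with most missing regions (ties by mean rank, so Gramd1b, Ppp2r5c and Mapre2, also with 5, were left out), up to 4 per list, and Tcf3, Esr1 and Id1; some of them are not reported here. Wars, Xdh, Ifitm3, genes named only for a printed promoter, and markers at 0 were named after their values were seen. Alternatives covered overlap, list length, strength, summits, autosomes and distances. The code was tested on 20000 simulated regions. The software was Python 3.11.15 with scipy 1.17.1, numpy 2.4.6, pandas 2.3.3 and matplotlib 3.10.9.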

Additional observations from a re-analysis of the deposited data

How the results depend on the processing

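No paired analysis was possible because each group has 1 peak list made from both of its samples, so no replicate could be blocked or left out. The 4060 regions missing only from E47 at 16 h stayed within 1.5 times of that number with an overlap of 50% of the shorter region (4072), linking up to 200 bp (3637), autosomes only (3964), equal list length by fold (2867) and no E47 16 h region within 1 kb (3248). They numbered 2354 at equal list length by −log10 p, 6700 as summits within 150 bp and 123 above the median of each list. Their share of 12.0% became 7.69%, 10.4% and 0.641% under these 3 settings, 9.66% at equal length by fold and 9.63% without an E47 16 h region within 1 kb. Regions missing only from GFP at 4 h (2607) numbered 1387 and 1514 at equal length by −log10 p and by fold, 5189 as summits and 23 above the median. Those missing only from GFP at 16 h (874) numbered 1358, 1697, 2106 and 2, and those missing only from E47 at 4 h (752) numbered 1534 as summits and 1 above the median. Fewer regions or more units per region, by construction, move these counts; other causes were not tested. In each of these settings that compare the lists, E47 at 16 h lacked the most. The share within 1 kb of a gene end (10.7%) was 9.81% at equal length, 6.38% within 500 bp and 26.9% within 5 kb. Regions in the 20 gene lists (178) numbered 109 at equal length and 119 within gene bodies and 5 kb to either side. Chosen after seeing the data, equal length together with strength left 29 regions missing from E47 at 16 h and 5 from GFP at 4 h, and at equal length 67.3% ranked lower in E47 than in GFP at 4 h. Only 6 promoters belonged to regions above the median, too few for motif shares. Absence from a list means only that no peak was called, and weaker accessibility is not measured.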

Other observations

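Some genes with several regions had most of them missing from E47 at 16 h; they were picked after their values were seen. Of 1640 genes with 5 or more regions in the other 3 lists, 43 had at least 50% of them missing and 598 had none missing. Adamtsl3, Asb17 and Nemp2 had 4 of 5 missing, and Cep85l, R3hcc1l and Zfp469 had 4 of 6. The median ranks of their regions were 25.9 for Adamtsl3, 14.0 for Asb17, 24.6 for Nemp2, 31.4 for Cep85l, 28.0 for R3hcc1l and 12.0 for Zfp469, against 48.7 over all regions.

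A few more regions with a mean rank over 50 are given, also picked after their values were seen. Their mean ranks were 56.6 (Dpp4), 51.7 (Ppargc1a) and 56.7 (Dgkz). Inside Dpp4, a cell surface peptidase gene (chr2:62350213-62350678), folds were 13.1 in E47 at 4 h, 15.5 in GFP at 4 h and 21.7 in GFP at 16 h. Inside Ppargc1a, a coactivator gene of mitochondrial biogenesis (chr5:52035371-52035755), they were 12.5, 15.4 and 23.9. Inside Dgkz, which encodes a diacylglycerol kinase (chr2:91947748-91948373), they were 6.99, 9.13 and 11.8, with an E47 16 h region 418 bp away.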
